A study of Mus musculus with 18 samples.

Results

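Angptl4, Pdk4, Ucp2 and Ucp3 are 4 genes that fatty acids switch on in muscle through peroxisome proliferator-activated receptors (PPARs), and their transcripts were measured in C2C12 myotubes, muscle fiber-like cells formed by fusion of a mouse myoblast line. They were chosen by name as fatty-acid-induced PPAR targets, with their response to palmitic acid (PA) in these libraries already known. Their values in PA against BSA are therefore given as a description, without a test. The count table holds 55414 genes, of which 21772 had at least 10 counts in total and were tested, and all 4 genes were among them. The 18 libraries form 6 groups of 3. Cells received non-targeting siRNA (siNtc), a pool of siRNAs against Erk3 (siErk3; the gene is Mapk6) or a pool against Mk5 (siMk5; the gene is Mapkapk5), were differentiated for 6 days and then kept for 16 h without serum in bovine serum albumin (BSA), the vehicle, or in 0.5 mM PA bound to BSA. All groups share the cell line, the transfection and the serum-free medium. Separate cultures were not stated, so p-values measure the spread between these libraries, which may be technical.

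PPARs are nuclear receptors that bind fatty acids and, paired with retinoid X receptors, activate genes of lipid use. Angptl4 encodes a secreted inhibitor of lipoprotein lipase, which limits how much circulating fat a tissue takes up. Pdk4 encodes a kinase that inactivates the pyruvate dehydrogenase complex, so that mitochondria burn fatty acids in place of glucose. Ucp2 and Ucp3 encode mitochondrial carriers related to the uncoupling protein of brown fat, Ucp2 found in many tissues and Ucp3 typical of skeletal muscle.

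In GRCm39 coordinates of the count table, Angptl4 (ENSMUSG00000002289) lies on the minus strand at chr17:33992724-34000804 and Pdk4 (ENSMUSG00000019577) on the minus strand at chr6:5483351-5496309. Ucp3 (ENSMUSG00000032942, chr7:100122197-100135639) and Ucp2 (ENSMUSG00000033685, chr7:100142544-100151227) are neighbours on the plus strand of chromosome 7, with Ucp3 ending 6905 bases before Ucp2 begins. No exon of the 4 genes shared bases with another gene on the same strand, and 305 exon bases of Ucp2 overlapped Dnajb13 on the opposite strand, which the stranded counting kept apart. Of the exon stretches of 50 bases, none of Angptl4, Ucp2 or Ucp3 and 1.72% of Pdk4 recurred in the same orientation in transcripts of other genes in the GENCODE M39 annotation. In the opposite orientation, 26.1% of the Ucp3 stretches lay in the long non-coding RNA Gm72028 and 15.8% of the Ucp2 stretches in Dnajb13.

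Promoter windows of 300 bases in RefSeq (build GRCm38.p6) were matched for 3 of the 4 genes, Pdk4, Ucp2 and Ucp3. The 150 bases before each start are shown because these genes differed in response and because the windows were searched for binding letters. Capitals mark the nuclear receptor half-site AGGTCA. Pdk4 is at chr6:5496279-5496428 on the minus strand, Ucp2 at chr7:100493208-100493357 on the plus strand and Ucp3 at chr7:100472841-100472990 on the plus strand.
Pdk4: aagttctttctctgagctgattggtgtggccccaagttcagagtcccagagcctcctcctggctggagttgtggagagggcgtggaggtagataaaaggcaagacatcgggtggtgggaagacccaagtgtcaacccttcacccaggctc
Ucp2: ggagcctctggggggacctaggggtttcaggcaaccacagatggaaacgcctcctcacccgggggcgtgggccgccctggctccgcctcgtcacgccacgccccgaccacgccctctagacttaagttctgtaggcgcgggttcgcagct
Ucp3: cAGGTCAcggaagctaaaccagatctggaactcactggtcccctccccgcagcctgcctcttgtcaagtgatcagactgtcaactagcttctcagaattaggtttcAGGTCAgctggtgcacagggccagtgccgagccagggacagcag
Ucp3 carried the half-site at 149 and at 44 bases before its start, both on the coding strand, and Pdk4 and Ucp2 did not carry it in the window. Of all 32851 promoter windows of that length, 16.3% held the half-site on either strand. The direct repeat AGGNCANAGGNCA, the layout PPARs bind with retinoid X receptors, was in none of the 3 windows and in 0.381% of all windows. The hypoxia core ACGTG (19.6% of all windows), the FoxO motif TGTTTAC (3.65%) and the glucocorticoid receptor palindrome (0.475%) were also not in the 3 windows. All motifs were searched on both strands, and the direct repeat holds the half-site only where a copy reads AGGTCA. In GRCm39 windows of 3000 bases on each side of the gene start, none of the 4 genes held the direct repeat, against 10.1% of 21746 genes. These are statements on letters only.

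The libraries held 13041979 to 28496727 assigned read pairs. The 18S ribosomal RNA gene took 1.497 to 12.9% of counts and was highest in siMk5 BSA, at 8.39 to 12.9%. Mapk6 was lower with siErk3, at 55.2 to 60.3 against 129.0 to 135.3 CPM (counts scaled to a common library size) with siNtc in BSA, and at 108.7 to 131.4 against 215.4 to 243.6 CPM in PA. Mapkapk5 with siMk5 was 1.18 to 2.01 against 2.32 to 2.54 CPM in BSA and 2.17 to 2.43 against 2.52 to 3.92 CPM in PA, and did not pass the test (edgeR quasi-likelihood FDR 0.469 in each medium). The paper also found only a downward trend of Mk5 mRNA, and reports from Western blots that both kinases were efficiently silenced. The 9 myotube markers, among them Myog and Acta1, were all detected. Their summed level was 9097 to 9286 CPM in siNtc PA and 9763 to 10458 CPM in siNtc BSA. With siNtc, 4 of 9 were called lower in PA (FDR below 0.05 and more than 1.3-fold), against 15.1% of all genes. Of these markers, Ckm (log2 fold change −0.379) was at the edge of the fold criterion. The summed level of 5 markers of undifferentiated or dividing myoblasts was 802.1 to 877.2 CPM in BSA and 328.6 to 436.1 CPM in PA, so it was lower in PA, where Angptl4 and Pdk4 were higher, and its part in the response of the 4 genes was not tested. Of the adipocyte markers, Plin1, Cidec and Cfd had 0 counts, and Adipoq, Lep and Retn had 1, 6 and 2 counts over all libraries. Macrophage markers summed to 1.72 to 2.70 CPM, with Adgre1 at 0 counts. In bulk RNA, fewer cells of a type and less RNA per cell cannot be told apart.

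Angptl4 showed the widest range of the 4 genes on the per-length scale. In BSA its level was 21.4, 24.3 and 23.8 CPM with siNtc, 22.4, 22.3 and 25.3 CPM with siErk3, and 24.2, 25.1 and 26.6 CPM with siMk5. In PA it was 390.6, 399.0 and 403.5 CPM with siNtc, 364.0, 365.0 and 350.3 CPM with siErk3, and 375.0, 371.4 and 356.8 CPM with siMk5. Every PA library was above every BSA library, and within PA every siNtc library was above every library of both silenced groups. Both silenced groups were set against the same siNtc libraries. Here and below, separation of libraries is only a description, since the share of all genes that separate so was not counted. The log2 fold change of PA against BSA was 4.09 (SE 0.056) with siNtc, 3.95 (SE 0.055) with siErk3 and 3.86 (SE 0.055) with siMk5, that is 17.03-fold, 15.4-fold and 14.6-fold. Ordered from highest, it ranked 204, 201 and 262 among the 21772 genes. Groups in rising order were siNtc BSA, siErk3 BSA, siMk5 BSA, siErk3 PA, siMk5 PA and siNtc PA. Neighbours in this order overlapped, except that siMk5 BSA stood apart from siErk3 PA and siMk5 PA from siNtc PA.

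Pdk4 was also higher in every PA library than in every BSA library, over a smaller range. Its BSA levels were 40.9, 40.3 and 38.6 CPM with siNtc, 34.9, 38.5 and 37.1 CPM with siErk3, and 44.3, 45.6 and 43.2 CPM with siMk5. In PA they were 116.4, 124.7 and 123.3 CPM with siNtc, 122.1, 105.6 and 94.7 CPM with siErk3, and 123.3, 122.2 and 111.7 CPM with siMk5. The 3 groups in BSA did not overlap, siErk3 being lowest and siMk5 highest. The gap was narrow between siErk3, at up to 38.46 CPM, and siNtc, from 38.585 CPM. In contrast, the 3 groups in PA overlapped, and siErk3 PA had the widest spread (107.5 ± 13.8 CPM, SD, n = 3). The log2 fold change of PA against BSA was 1.61 (SE 0.067) with siNtc, 1.54 (SE 0.066) with siErk3 and 1.43 (SE 0.066) with siMk5.

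Ucp2 was well expressed in both media and moved little. Its BSA levels were 124.1, 126.5 and 129.5 CPM with siNtc, 123.0, 127.5 and 130.0 CPM with siErk3, and 105.1, 120.7 and 125.0 CPM with siMk5. In PA they were 183.7, 157.7 and 137.2 CPM with siNtc, 116.3, 145.0 and 169.3 CPM with siErk3, and 139.3, 156.0 and 153.6 CPM with siMk5. With siNtc and with siMk5 each PA library was above each BSA library of the same siRNA, and with siErk3 the lowest PA library was below all 3 BSA libraries. The log2 fold change of PA against BSA was 0.33 (SE 0.090), 0.18 (SE 0.089) and 0.36 (SE 0.090) with siNtc, siErk3 and siMk5. All neighbours in the order of the 6 groups, from siMk5 BSA to siNtc PA, overlapped.

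Ucp3 was near the limit of detection, so its values rest on single counts. With siNtc in BSA the 3 libraries had 2, 1 and 4 counts, with siErk3 9, 10 and 8, and with siMk5 5, 11 and 5. In PA the counts were 19, 12 and 8 with siNtc, 12, 14 and 9 with siErk3, and 9, 10 and 15 with siMk5. The siNtc BSA libraries were below all other libraries, and among the other 5 groups, siErk3 BSA was the only one apart from its next higher group, siErk3 PA. Mean levels were 0.124 ± 0.0751 CPM in siNtc BSA and 0.602 ± 0.230 CPM in siNtc PA (SD, n = 3). The log2 fold change of PA against BSA was 2.31 (SE 0.55) with siNtc, 0.46 (SE 0.41) with siErk3 and 0.67 (SE 0.44) with siMk5. Leaving out the siNtc BSA library with 1 count or any other of its group moved the value with siNtc between 1.80 and 2.83.

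**Figure D1:**
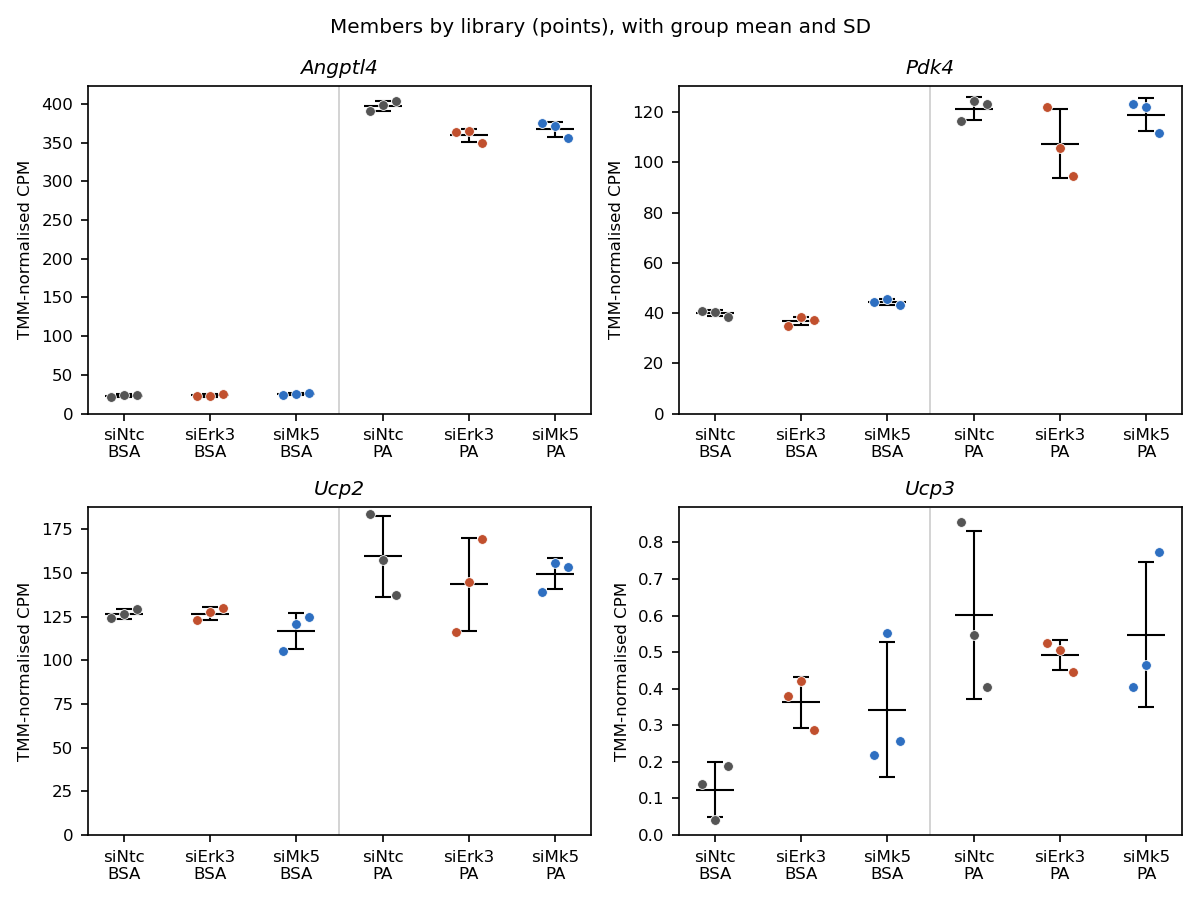
TMM-normalised CPM of Angptl4, Pdk4, Ucp2 and Ucp3 (vertical axes, from 0, with a scale of its own for each gene) in the 6 groups (horizontal axes); points are libraries, long dashes group means and bars SD (n = 3). Angptl4 and Pdk4 in PA lie above all BSA libraries, Ucp2 lies between 105.1 and 183.7 CPM in both media, and Ucp3 stays below 0.9 CPM.

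Per kilobase of exon, the order of the genes differed between media. With siNtc in BSA the level was 18.1 ± 0.387 CPM per kilobase for Ucp2, 11.4 ± 0.338 for Pdk4, 6.55 ± 0.439 for Angptl4 and 0.0395 ± 0.0240 for Ucp3 (SD, n = 3). With siNtc in PA it was 112.3 ± 1.86 for Angptl4, 34.6 ± 1.26 for Pdk4, 22.8 ± 3.33 for Ucp2 and 0.192 ± 0.0735 for Ucp3. Angptl4 therefore stood below Pdk4 in BSA, at 0.577 ± 0.0503 of its level, and above it in PA, at 3.25 ± 0.0764 times its level. The same ratio was 0.628 and 3.35 with siErk3 and 0.566 and 3.07 with siMk5. The union of annotated Ucp2 exons is long (6989 bases, against 3135 to 3541 for the other genes), which lowers its per-length level. Ucp2 exceeded Ucp3 on this scale in every library, with ratios from 307.2 to 1361 in the siNtc BSA libraries, where Ucp3 had 1 to 4 counts, and from 96.4 to 152.3 in the siNtc PA libraries.

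The comparison of each silencing with siNtc asked whether Erk3 or Mk5 alters these genes in each medium. Genes were called at an FDR below 0.05 where they also differed by more than 1.3-fold, up or down, and none of the 4 genes was called in any of the 4 comparisons. Over all genes tested, 0.785% passed with siErk3 in BSA, 0.0643% with siMk5 in BSA, 0.556% with siErk3 in PA and 0.547% with siMk5 in PA. The log2 fold changes of Angptl4, Pdk4 and Ucp2 were all within 0.18 of 0, below the 0.38 that the fold criterion needs. The siNtc libraries are shared with the contrast that the genes are known for. A choice for a rise in PA can favour high siNtc values in PA and low ones in BSA. The silencing values, p-values and separations against siNtc are therefore not independent of that choice.

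Under PA, Angptl4 had lower levels in both silenced groups, without passing the test. With siErk3 its log2 fold change was −0.14 (fold change 0.905, 95% interval −0.24 to −0.05) and the libraries did not overlap, with an unadjusted edgeR p of 0.0034 and an FDR of 0.188. With siMk5 the log2 fold change was −0.11 (95% interval −0.21 to −0.02, FDR 0.574), also without overlap. Both silenced groups were set against the same siNtc libraries, and how many other genes separate so was not counted. In BSA the corresponding values were 0.00 (95% interval −0.13 to 0.13) and 0.11 (95% interval −0.01 to 0.24), and the libraries overlapped. For Pdk4 the log2 fold change with siErk3 was −0.11 (FDR 0.612) in BSA and −0.18 (95% interval −0.30 to −0.05, FDR 0.292) in PA. The value in PA depended on single siErk3 PA libraries, being −0.27 (FDR 0.0058) without that of 122.1 CPM and −0.09 (FDR 0.654) without that of 94.7 CPM. Its FDR ranged from 0.0058 to 0.714 over all alternatives, with 0.0358 when low counts were not filtered, and the fold criterion was met in none of them. With siMk5 Pdk4 changed by a log2 value of 0.15 (FDR 0.690) in BSA and −0.03 (FDR 0.984) in PA. Ucp2 gave 0.00 and −0.16 with siErk3 and −0.12 and −0.09 with siMk5 in BSA and PA, with FDR from 0.684 upwards. Single libraries moved the Ucp2 value with siErk3 in PA between −0.28 (without the siErk3 library of 169.3 CPM) and −0.02 (without that of 116.3 CPM), and it was −0.25 and −0.04 without the siNtc libraries of 137.2 and 183.7 CPM. Without the siMk5 library of 105.1 CPM, the value with siMk5 in BSA was −0.05. The lowest FDR of Ucp2 with siErk3 in PA was 0.0795, when low counts were not filtered.

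Ucp3 showed the largest fold changes of silencing and the least precision. In BSA its log2 fold change was 1.56 (SE 0.59, 95% interval 0.39 to 2.82) with siErk3 and 1.47 (SE 0.62, 95% interval 0.25 to 2.79) with siMk5, each against 7 counts in the 3 siNtc libraries together. Neither passed the test (edgeR FDR 0.283 and 0.640). Without single libraries the values ranged from 1.07 to 2.10 with siErk3 and from 0.96 to 2.01 with siMk5, the lowest with siErk3 being without the siNtc library of 1 count and the lowest with siMk5 without the siMk5 library of 11 counts. The silenced libraries, at 5 to 11 counts, were all above the siNtc libraries. Without the siNtc library of 1 count the value with siMk5 was 0.98. In PA it was −0.29 (95% interval −1.08 to 0.49) with siErk3 and −0.17 (95% interval −0.96 to 0.62) with siMk5. Intervals are of the unshrunken coefficient and therefore not centred on the fold change. Of the 9 myotube markers, 3 were called higher with siErk3 than with siNtc in BSA (Myh8, Actn2 and Myh3, by log2 values of 0.57, 0.48 and 0.39) and 2 in PA (Myh8 and Actn2, by 0.60 and 0.42). Over all genes, 0.785% were called with siErk3 in BSA and 0.556% in PA, in either direction. The other myotube markers did not pass, with Myog at −0.05 in BSA and 0.06 in PA. The part of the markers in the values of the 4 genes was not tested.

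The direct comparison of siErk3 with siMk5 needed no siNtc library. None of the 4 genes passed in BSA, in PA or in the difference of the PA responses, where 0.588%, 1.03% and 0.0735% of all genes did. Pdk4 came nearest, with levels in BSA of 34.9 to 38.5 CPM with siErk3 and 43.2 to 45.6 CPM with siMk5. Its log2 fold change was −0.27 (SE 0.069, 95% interval −0.41 to −0.13, edgeR unadjusted p 0.0006 and FDR 0.0656), and in PA −0.15 (95% interval −0.27 to −0.02, FDR 0.368). The value in PA was −0.25 (FDR 0.00892) without the siErk3 library of 122.1 CPM and −0.06 (FDR 0.738) without that of 94.7 CPM. With DESeq2 the FDR in BSA was 0.0386 for a log2 fold change of −0.27, with only the 6 libraries compared 0.0043 and with no filter on low counts 0.000965, so the FDR depended on the fit while the fold change stayed below 1.3. Angptl4 differed by −0.11 in BSA and −0.03 in PA, Ucp2 by 0.12 and −0.06, and Ucp3 by 0.08 and −0.13, each with an FDR above 0.6. The PA response of siErk3 minus that of siMk5 was 0.08 for Angptl4 (95% interval −0.07 to 0.24), 0.12 for Pdk4 (−0.07 to 0.31), −0.18 for Ucp2 (−0.44 to 0.08) and −0.21 for Ucp3 (−1.45 to 1.03), on the log2 scale.

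Against the PA response with siNtc, which the choice of the genes rests on, only values are given. The difference on the log2 scale was −0.15 (95% interval −0.30 to 0.01) for Angptl4 with siErk3 and −0.23 (95% interval −0.38 to −0.07) with siMk5. For Pdk4 it was −0.06 (−0.25 to 0.13) and −0.18 (−0.37 to 0.01), for Ucp2 −0.16 (−0.42 to 0.10) and 0.02 (−0.24 to 0.28). For Ucp3 it was −1.85 (−3.36 to −0.44) and −1.64 (−3.19 to −0.18), both set by the 7 counts of siNtc in BSA.

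**Figure D2:**
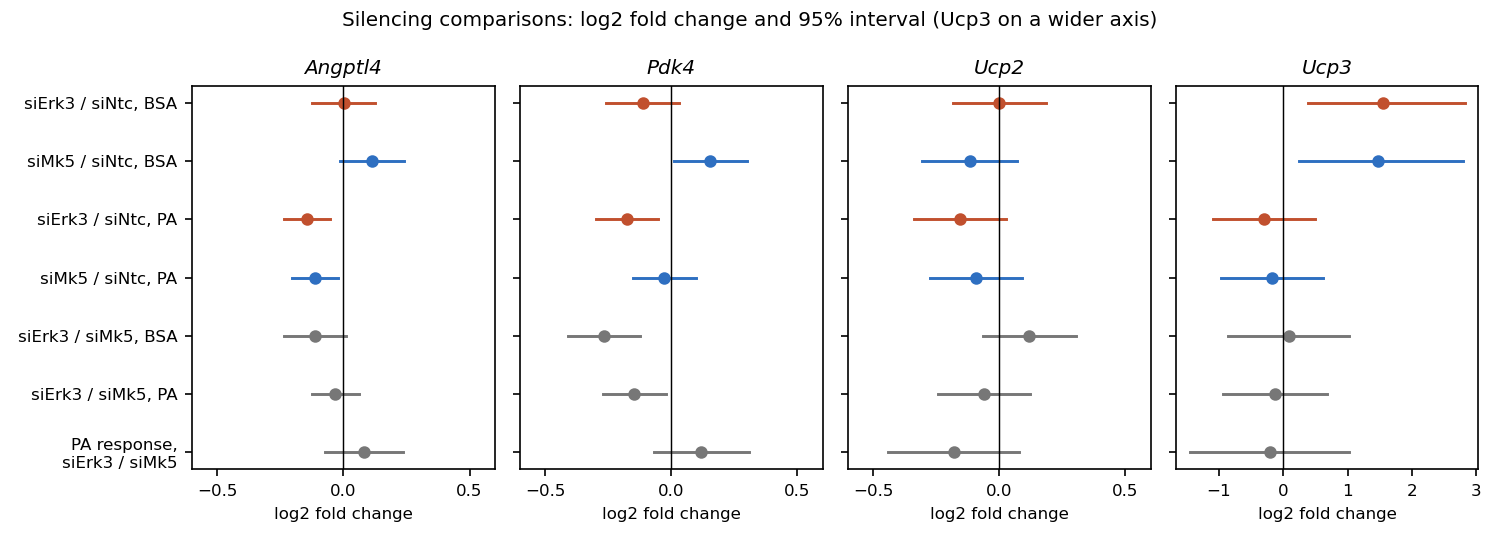
log2 fold change (points, horizontal axes) and 95% interval (lines) of each gene in the 7 tested comparisons (rows); siErk3 against siNtc is orange, siMk5 against siNtc blue and siErk3 against siMk5 grey. Values of Angptl4, Pdk4 and Ucp2 lie within 0.3 of 0, and Ucp3 has its own, wider axis with values near 1.5 for both silencings in BSA.

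The relatives of the 4 genes did not share one direction in PA. With siNtc, 15.5% of all genes passed as higher and 15.1% as lower in PA, with siErk3 15.8% and 16.3%, and with siMk5 15.1% and 14.6%. Of the angiopoietin-like genes, Angptl6 rose from 2.58 ± 0.415 to 12.5 ± 0.905 CPM (log2 fold change 2.25, edgeR FDR 7.08e-16) and Angptl2 fell from 163.8 ± 18.95 to 114.5 ± 4.81 CPM (−0.52, FDR 5.40e-07), both SD, n = 3. Angptl7 had 11 counts in all and did not pass, Angptl1 had 2, and Angptl8, which also acts on lipoprotein lipase, had 0 counts in all 18 libraries.

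The kinases of pyruvate dehydrogenase moved apart from each other. With siNtc, Pdk2 fell from 28.9 ± 2.36 to 16.3 ± 0.728 CPM (log2 fold change −0.83, edgeR FDR 1.19e-10), and Pdk3 and Pdk1 had log2 fold changes of −0.33 (FDR 1.54e-05) and −0.22 (FDR 0.0224), below the fold criterion. The share of Pdk4 in the summed per-length level of Pdk1 to Pdk4 was 29.7% ± 1.32 in BSA and 63.7% ± 0.851 in PA with siNtc. It was 27.9% ± 0.867 and 61.2% ± 3.604 with siErk3, and 31.9% ± 1.36 and 62.9% ± 2.42 with siMk5 (SD, n = 3). Pdk3 held the largest share in siNtc BSA, 31.7%, and 17.8% in PA. The summed level went from 38.3 ± 1.04 to 54.3 ± 1.28 CPM per kilobase with siNtc, while Pdk4 alone went from 11.4 to 34.6 CPM per kilobase. Of the 10 genes of the pyruvate dehydrogenase complex, its phosphatases and the pyruvate carrier, 1 was higher and none lower with siNtc, not above the 15.5% of all genes higher and 15.1% lower. That gene, Pdp2, encodes a phosphatase that reactivates the complex (log2 fold change 0.56, FDR 1.35e-05).

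**Figure D3:**
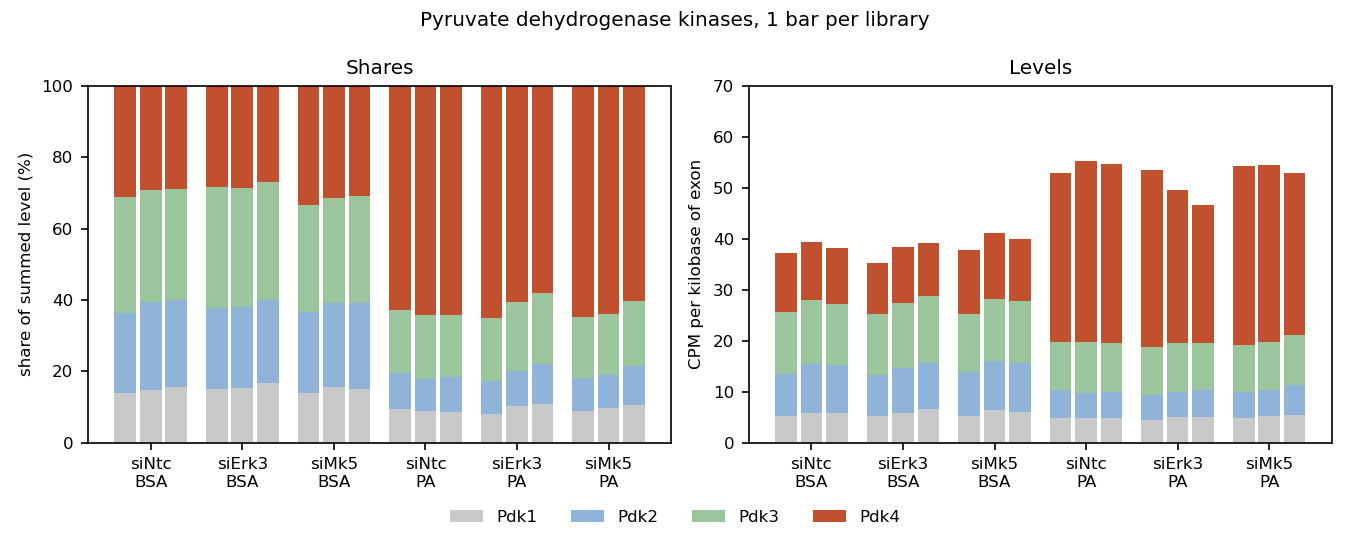
Share of each kinase in the summed per-length level of Pdk1 to Pdk4 (left, percent) and the levels themselves (right, CPM per kilobase of exon), 1 stacked bar per library in the 6 groups. Pdk4, the top segment, takes 26.9 to 33.4% in BSA libraries and 57.9 to 65.0% in PA libraries.

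Among relatives of the uncoupling proteins, Ucp1 of brown fat had 1 count in all 18 libraries. Slc25a30, a related mitochondrial carrier, rose with PA in siNtc by a log2 value of 0.66 (edgeR FDR 1.00e-11), Slc25a27 fell by 0.86 (FDR 5.03e-08), and Slc25a14 had a value of 0.04 (FDR 0.843).

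Other PPAR targets of fatty acid handling were taken as a list of 40 genes, of which 35 were tested. With siNtc 11 were higher and 0 lower in PA, with siErk3 11 and 1, and with siMk5 13 and 0, against the shares of all genes above. The median log2 fold change of the list was 0.12, 0.18 and 0.15, and that of all genes −0.03, −0.01 and −0.01. By role with siNtc, 3 of 4 tested lipid droplet genes were higher. Plin2, which coats droplets, had a log2 fold change of 3.03 (FDR 1.30e-25), and Hilpda, an inhibitor of droplet lipolysis, of 1.51 (FDR 2.48e-11). Of the 6 uptake and activation genes 3 were higher, the transporter Slc27a1 (2.13), the lipase Lpl (1.61) and Acsl1 (0.57), which activates fatty acids.

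Genes that carry fatty acids into mitochondria and oxidise them form the other lists. The counts below stand beside 15.5% of all genes higher and 15.1% lower with siNtc. Of 4 carnitine shuttle genes, Cpt1a, the entry step, was higher (1.17, FDR 1.50e-15). Of 10 beta oxidation genes Acadl was higher (0.62, FDR 3.91e-12), while the median of those 10 was −0.22. The genes with the next smallest FDR fell, below the fold criterion. They were Acadvl (−0.33, FDR 5.16e-07), Hadhb (−0.37, FDR 6.24e-07) and Hadha (−0.31, FDR 1.02e-06). Of 11 other targets 3 were higher, the thioesterase Acot2 (3.15, with Acot1 a close paralog that could share reads), catalase Cat (0.96) and the hormone Fgf21 (1.16). On this scale Angptl4, at 4.09, was above all tested genes of the list, and Pdk4, at 1.61, was near Lpl and Hilpda.

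**Figure D4:**
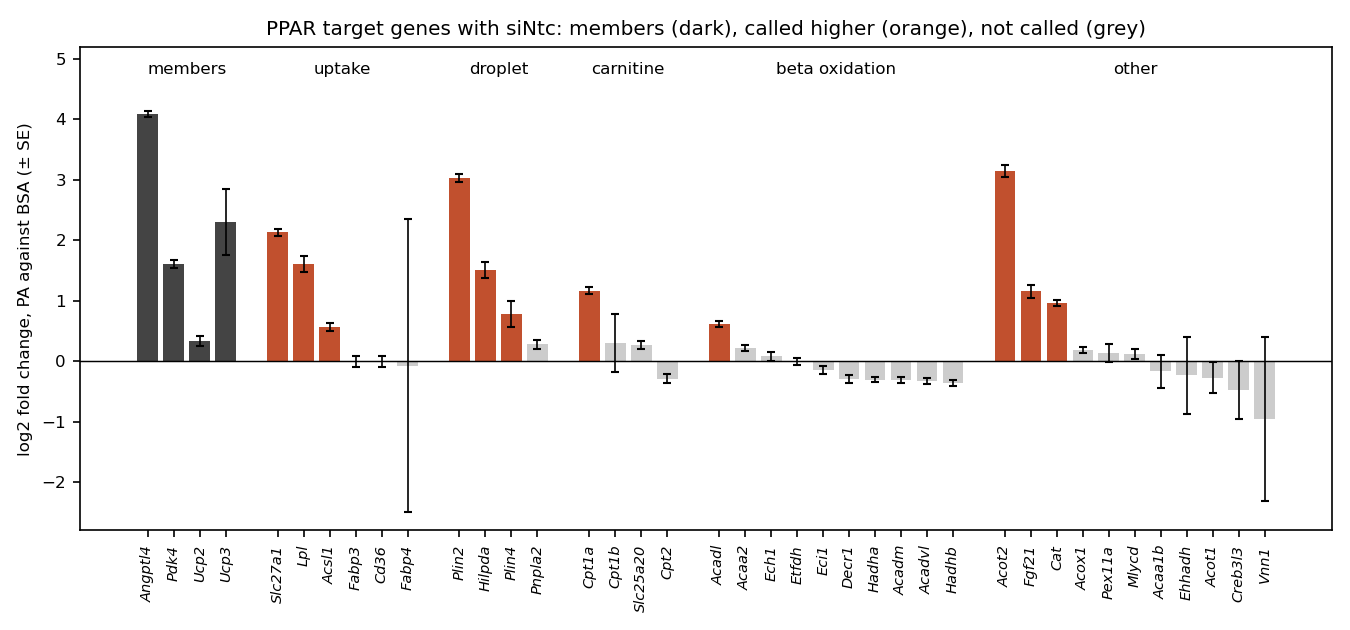
log2 fold change of PA against BSA with siNtc (vertical axis, bars, with SE) for the 4 genes (dark) and the 35 other tested PPAR targets by role; orange bars passed the test and grey bars did not. Angptl4 is the highest bar at 4.09, and Acadl, at 0.62, is the highest of the beta oxidation genes.

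Of the receptors and coregulators, Ppard, the main PPAR of muscle, rose from 46.7 ± 3.12 to 89.9 ± 6.32 CPM with siNtc (log2 fold change 0.94, edgeR FDR 7.41e-13) and Pparg from 4.89 ± 0.446 to 7.09 ± 0.849 CPM (0.54, FDR 0.000524; SD, n = 3). Ppara had 0 to 12 counts per library. Nrip1, a corepressor, was higher (0.57), Ppargc1b, a coactivator, lower (−0.53), and Rxrg, at 1 to 19 counts per library, lower (−1.99) among the 11 genes tested. The genes that act with Angptl4 were Lpl, its target, and Lmf1, which matures the lipase, both higher (1.61 and 0.67), with 2 of 5 tested genes called. Over all genes, 15.5% were higher and 15.1% lower with siNtc. Whether these short lists stand above those shares was not tested.

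Angptl4 and Pdk4 are also known targets of other regulators, so lists for these were counted with siNtc, beside the 15.5% of all genes higher and 15.1% lower. Of 9 glucocorticoid receptor targets 6 were higher and 0 lower, with Klf15 at a log2 fold change of 4.06 and the metallothionein Mt2 at 1.81. The Klf15 value starts from a low level, 0.357 ± 0.187 CPM in siNtc BSA against 6.26 ± 0.425 CPM in siNtc PA (SD, n = 3). Of 13 targets of hypoxia-inducible factor 5 were higher and 1 lower, with Vegfa at 1.98 and the glucose transporter Slc2a1 at 1.73. Of 12 FoxO factors and targets 2 were higher and 4 lower, with Eif4ebp1 at 1.68 and Sesn1 at −0.90. The share of FoxO genes called higher was near that of all genes. The median log2 fold changes of the 3 lists were 0.57, 0.35 and −0.12, and that of all genes −0.03.

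Under silencing, the PPAR list held 1 gene that passed, Cd36, a fatty acid transporter at the cell surface. It was higher with siErk3 than with siNtc in PA (log2 fold change 0.41, edgeR FDR 0.0180) and than with siMk5 in BSA (0.46, FDR 0.00666). Over all genes, 0.556% and 0.588% passed in these comparisons, in either direction. Whether the list stands apart from all genes was not tested. In BSA, Cd36 did not pass with siErk3 against siNtc, and with siMk5 against siNtc it had a value of −0.34 (FDR 0.248). Its PA response with siNtc was −0.01 (FDR 0.954). Of the other regulators' lists, Mt2 had a larger PA response with siErk3 than with siMk5 (difference 0.43, FDR 0.0208), where 0.0735% of all genes passed.

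The pattern of each gene over the 18 libraries was compared with that of genes with a mean level of at least 1 CPM by Pearson's r of log2(CPM + 1), as a description. The libraries fall into the 2 media and share their treatment and normalisation, so a high r mostly says that a gene steps between BSA and PA. The 5 genes most like Angptl4 were Herpud1, Sel1l, Pdia4, Manf and Creld2 (r from 0.999 downwards), all genes of protein folding or quality control in the endoplasmic reticulum, and 386 of 12733 genes had an r above 0.99. For Pdk4 they were Mtdh, Nfe2l2, Grem1, Slc30a4 and Mbnl2 (r 0.994 to 0.995). For Ucp2 they were Erg28, Mmp11, Nid1, Mrps12 and Sqle (r 0.859 to 0.9003), and for Ucp3 Slc25a40, Cisd2, Rnf157, Bend6 and Atp23 (r 0.832 to 0.867). By rank correlation 0, 1, 2 and 2 of these 5 genes stayed among the 5 nearest for Angptl4, Pdk4, Ucp2 and Ucp3. Between Angptl4 and Pdk4, r was 0.442 among the 9 BSA libraries, 0.685 among the 9 PA libraries and 0.164 after group means were subtracted.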

How the data were processed

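RNA of 18 C2C12 libraries was sequenced with a poly(A), strand-specific protocol. The authors trimmed reads, aligned them with STAR, marked duplicates without removing them, and deposited raw counts of read pairs per gene, made with featureCounts 2.0.0 per the file headers (Ensembl 105, GRCm39, strand setting 2, primary alignments, minimum mapping quality 3). The labels list mm10, and coordinates here follow the count table. The deposited second table holds log2 values of count divided by a size factor plus 1, which equalled values recomputed from the counts within a relative deviation of 3.53e-14, and served no other purpose. Columns of samples outside the series numbered 0.

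Groups came from the labels. Counts were fitted with edgeR 4.0.16 in R 4.3.3, with TMM normalisation, 1 coefficient per group over all 18 libraries and quasi-likelihood tests, keeping 21772 genes whose counts summed to 10 or more. Adjusted p-values (FDR) are by Benjamini-Hochberg over these genes, and genes with an FDR below 0.05 and a fold change above 1.3 were called. The methods of the study used DESeq2, and DESeq2 1.42.0 was run as an alternative, as were other normalisations, filters, criteria, a replicate block, fits of the compared groups only and fits without each library in turn. CPM are TMM-normalised. Totals of 13041979 to 28496727 read pairs mean that counting error is large only for low genes such as Ucp3. The fit was tested on simulated counts. Replicate libraries differed by more than counting noise.

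The 4 genes and all lists were chosen with earlier results of these data known. Named are the 4 genes, their relatives (1 of which is not reported here), at most 4 genes of smallest FDR in PA against BSA with siNtc per list, the 5 genes of highest r with each of the 4, the silenced genes, and, chosen after their values were seen, Cd36, Ppara, Rxrg, Actn2, Myh3, Acta1 and the adipocyte and macrophage markers. Symbols came from GENCODE M39, promoters from RefSeq. Sequence searches used Python 3.11.15, and the wider promoter window was chosen after the data were seen.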

Additional observations from a re-analysis of the deposited data

Results flagged for a closer look

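For Angptl4, all 3 siMk5 libraries were above the siNtc mean in BSA and below it in PA, so the effect of siMk5 in PA minus that in BSA was −0.2269 on the log2 scale. This difference between media was not tested, because it shares the siNtc libraries with the response the genes were chosen for.

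For Ucp3, the siErk3 libraries were all above the siNtc mean in BSA and all below it in PA, with a difference of −1.8516 on the log2 scale. In PA the siNtc mean of 0.602 CPM included 1 library of 19 counts (0.855 CPM). The other siNtc PA libraries, at 0.547 and 0.404 CPM, overlapped those of siErk3 PA, at 0.447 to 0.526 CPM. Without single libraries the value with siErk3 in PA ran from −0.493 to 0.0512. The difference was not tested either, and it rests on 7 counts in the siNtc BSA libraries. The share of all genes with such opposite moves was not counted, for Ucp3 or for Angptl4.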

How the results depend on the processing

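Of the 48 log2 fold changes of the 4 genes, the replicate block left all 48 labelled the same. For the 7 tested comparisons that label means the same sign and the same call. For PA against BSA and its difference from siNtc it means a shift below 1 SD within groups. Signs were not compared there. Deviations of same-numbered libraries correlated at a mean r of −0.0065 (−0.607 to 0.516 over 10553 genes). That mean averages values of both signs. In PA, replicates 1 and 3 gave −0.607 and −0.595 for siNtc with siErk3, and −0.501 and −0.408 for siNtc with siMk5. For siErk3 with siMk5 they gave 0.516 and 0.432. The mean therefore cannot show whether the replicate numbers pair libraries, and the source of these relations was not tested. With the replicate block Pdk4 in siErk3 against siMk5 in BSA was −0.26 (FDR 0.0506). Among the 7 tested comparisons, each other full-data alternative changed the sign of 2 values and of no others, both close to 0, with siErk3 in BSA. Angptl4 there was −0.013 with DESeq2, −0.012 with its size factors, −0.020 with filterByExpr, −0.024 with at least 10 counts in every library, −0.016 with no filter, −0.017 without Rn18s-rs5 and mitochondrial genes, −0.022 with only the groups compared, and −0.058 to 0.043 without single libraries. Ucp2 was −0.011, −0.011, −0.020, −0.024, −0.016, −0.017, −0.021 and −0.012 to 0.032 in the same order. Ucp3 could not be fitted with at least 10 counts in every library. Without single libraries, further signs changed for Ucp3 with siErk3 in PA (−0.493 to 0.0512), with siMk5 in PA (−0.479 to 0.178), in siErk3 against siMk5 in BSA (−0.179 to 0.598) and PA (−0.306 to 0.185) and in their PA responses (−0.722 to 0.101), for Pdk4 with siMk5 in PA (−0.054 to 0.015), and for Ucp2 with siMk5 in PA (−0.186 to 0.024) and in siErk3 against siMk5 in PA (−0.189 to 0.066). PA against BSA moved by more than 1 SD for Ucp3 with siNtc (1.795 to 2.833) and siMk5 (0.356 to 1.18) and for Pdk4 with siErk3 (1.425 to 1.612). The difference of PA responses from siNtc did so for Pdk4 with siErk3 (−0.161 to 0.026) and for Ucp3 with siErk3 (−2.392 to −1.355) and siMk5 (−2.178 to −1.126). The Pdk4 range crossed 0, as did that of Ucp2 with siMk5 (−0.063 to 0.144), which moved by less than 1 SD. Genes called numbered 171 with siErk3 in BSA (263 by FDR alone, 113 to 144 without single libraries, lowest without siNtc BSA replicate 2), 14 with siMk5 in BSA (61 with no filter, and 9, 6, 25 and 7 without siNtc BSA replicates 1 and 2 and siMk5 BSA replicates 1 and 3), 121 with siErk3 in PA (208 with no filter, 71 with only the groups compared, 186 by FDR alone), 128 in siErk3 against siMk5 in BSA (201 with no filter) and 16 in the difference of PA responses (78 with no filter, 33 without siErk3 PA replicate 1, and 10 without replicate 2 of siErk3 BSA, siMk5 BSA or siErk3 PA). Where not stated, the cause was not tested. In windows of 3000 bases, and with the strict repeat AGGTCANAGGTCA, 0 of the genes' windows held a direct repeat. Depth limits Ucp3 most.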

Other observations

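With group means subtracted, the log2(CPM + 1) values of Pdk4 and Ucp2 correlated at r = −0.719 over the 18 libraries, which share normalisation, as a description only. In siErk3 PA, Pdk4 was 122.1, 105.6 and 94.7 CPM where Ucp2 was 116.3, 145.0 and 169.3 CPM. In siErk3 BSA, by contrast, both genes deviated in the same direction in each library. Without siErk3 PA, r was −0.342 over 15 libraries, and without any other single group it was −0.719 to −0.785. The relation therefore rests largely on the siErk3 PA libraries.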
